A study of Mus musculus with 6 samples.

Results

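The heavy chains of the mouse IGHV10 and IGHV14 families were followed in the spleens of an autoreactive 564Igi mouse and a wild-type mouse. Members were all primary immunoglobulin heavy chains whose V gene name began with IGHV10- or IGHV14-, in B cells, meaning barcodes that the B cell table of a mouse calls cells and its T cell table does not. They came from 6 of the 99 IGHV genes seen, IGHV10-1, IGHV10-3, IGHV14-1, IGHV14-2, IGHV14-3 and IGHV14-4. A chain counted when it was flagged high-confidence and productive and had at least 2 UMIs (unique molecular identifiers), and the primary chain of a cell was the one with most UMIs. Members made up 116 of 3471 cells with a heavy chain in 564Igi and 310 of 4824 in WT.

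The study profiled receptors of single splenocytes from 1 mouse per genotype, after red cells had been removed with Ter-119 beads. The 564Igi mouse was heterozygous for the knock-in alleles Igktm1(Igk564)Tik and Ightm1(Igh564)Tik on a B6.129S4(Cg) background, and the WT mouse was C57BL/6JRj. Ages are not given in the sources used here. With 1 mouse per genotype no test between genotypes was possible, and the exact 95% intervals printed here cover counting error only, since neither animals nor amplified reads were replicated. The B cell tables held 747499 UMIs in 564Igi and 927382 in WT, and the median primary heavy chain had 18 and 14 UMIs. Of cells with a light chain, 91.0% in 564Igi and 74.6% in WT also had a heavy chain. A heavy chain recovered less often in WT could bear on any share given here, and its part in the results was not tested. Of 38 barcodes called B cells in both mice, 3 carried a member chain in 564Igi and 1 did in WT.

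An antibody heavy chain is built from a V, a D and a J segment, and the loop that spans the joins is complementarity-determining region 3 (CDR3). Each V gene supplies the framework, the first 2 binding loops and the first residues of the CDR3. Chains of the IGHV10 family are known from mouse antibodies against DNA, in which arginine in the CDR3 is a recurrent contact, while IGHV14 is a small family also called SM7. An autoreactive receptor can be altered by receptor editing, in which a new light chain, kappa or lambda, takes the place of the old one, or by replacement of the heavy chain V segment, which leaves the end of the old CDR3 in place. A mature naive B cell makes IgM and IgD from the same transcript, and IGHG, IGHA or IGHE constant genes mark class switching.

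The V genes lie on chromosome 12 of GRCm38 (mm10), where RefSeq matched 6 of 6 as V segments. The IGHV14 genes are nearer to the J segments than the IGHV10 genes. Ighv14-1 lies at chr12:113931953-113932246, Ighv14-2 at chr12:113994469-113994898, Ighv14-3 at chr12:114059845-114060273 and Ighv14-4 at chr12:114176438-114176867. Ighv10-1 lies at chr12:114479007-114479451 and Ighv10-3 at chr12:114523441-114523887, with the pseudogenes Ighv10-2 and Ighv10-4 beside them. The distance from Ighj4 ran from 503 kb for Ighv14-1 to 1095 kb for Ighv10-3.

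In 564Igi, 1830 of 3471 cells (52.7%) had the same primary heavy chain, called the candidate here because the labels give no sequence of the knock-in. It was named IGHV1-53 with IGHJ4 and had the CDR3 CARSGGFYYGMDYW. It was not primary in any WT cell. The remaining 1641 cells of 564Igi, called non-candidate, held all 116 member chains. They were split by whether the CDR3 ended in the candidate's last 10 amino acids, GGFYYGMDYW. The end was present in 700 of these cells and absent from 941. Of the members, 33 chains carried the end and 83 did not.

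The CDR3 of the candidate and of the member chain with most UMIs from each gene that carried the end are printed here to show what is shared and what is not. Capitals mark the last 30 bases, which encode the end, and lower case marks the bases before it. These are sequences of assembled contigs as deposited, from TGT (cysteine) to TGG (tryptophan).
candidate heavy chain: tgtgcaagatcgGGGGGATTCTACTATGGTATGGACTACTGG
IGHV10-1 with the end: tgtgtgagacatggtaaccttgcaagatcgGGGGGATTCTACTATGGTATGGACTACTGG
IGHV14-1 with the end: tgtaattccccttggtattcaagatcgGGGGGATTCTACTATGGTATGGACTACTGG
IGHV14-3 with the end: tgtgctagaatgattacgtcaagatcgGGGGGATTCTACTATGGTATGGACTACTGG
IGHV14-4 with the end: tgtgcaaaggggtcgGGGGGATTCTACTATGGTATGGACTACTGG
The chains with the end kept all 30 of the candidate's last bases here. Bases just before the end were shared with the candidate too, caagatcg in the IGHV10-1, IGHV14-1 and IGHV14-3 chains and tcg in the IGHV14-4 chain. Farther before the end, the chains matched the candidate only in part. The IGHV10-1 chain also shared the bases tg before caagatcg, and the IGHV14-4 chain began with tgtgcaa as the candidate did. In 21 of 33 member chains (63.6%), arginine and serine stood right before the end, as they do in the candidate, against 414 of 667 chains with the end from other genes (62.1%). Of the 33 chains, 32 had a longer CDR3 than the candidate. The exception, an IGHV10-1 chain with 13 UMIs, had the candidate's length and 2 mismatches to it.
IGHV10-1 with the end, candidate length: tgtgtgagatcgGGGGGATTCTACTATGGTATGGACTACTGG

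Usage of the 6 genes was taken as a share of primary heavy chains, without the candidate in 564Igi. Together they held 116 of 1641 chains in 564Igi (7.07%, interval 5.88% to 8.42%) and 310 of 4824 in WT (6.43%, 5.75% to 7.16%). The difference of 0.64 percentage points had an interval of −0.76 to 2.15. The families pointed in opposite directions, and neither passed the rule used for calls, that the exact intervals do not overlap. IGHV10 held 2.13% in 564Igi and 2.61% in WT, and IGHV14 held 4.94% in 564Igi and 3.81% in WT. With the candidate kept in the 564Igi total, IGHV10 differed by −1.60 and IGHV14 by −1.48 points.

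IGHV14-3 was the member with the most chains in 564Igi. It held 34 of 1641 chains in 564Igi (2.07%, 1.44% to 2.88%) and 44 of 4824 in WT (0.912%, 0.663% to 1.22%). The difference was 1.16 points (0.455 to 2.01), and the intervals did not overlap. With the candidate kept in the 564Igi total, the difference was 0.07 points (−0.36 to 0.53). It was the only called member of the 5 that had at least 20 cells in either mouse. Among all 61 IGHV genes so tested, 29.5% were called, so 1 of 5 members is near the background. The median difference was −0.21 points over the 5 members and −0.12 points over all 61 genes.

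The other members tested were not called. IGHV14-4 held 12 chains in 564Igi (0.731%) and 71 in WT (1.47%), a difference of −0.74 points (−1.26 to −0.11), and the separate intervals overlapped. IGHV10-1 held 18 chains in 564Igi (1.10%) and 66 in WT (1.37%), and IGHV10-3 held 17 (1.04%) and 60 (1.24%). IGHV14-2 held 16 (0.975%) in 564Igi and 50 (1.04%) in WT. IGHV14-1 had 19 chains in each mouse, below the minimum of 20, and its share was 1.16% in 564Igi (0.698% to 1.80%) against 0.394% in WT (0.237% to 0.614%). Those intervals did not overlap, as for 29.5% of the genes tested, and they overlapped with a UMI minimum of 5. With the candidate kept in the 564Igi total the difference was 0.15 points in place of 0.76, and they overlapped too.

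The order of the members therefore differed between the mice. In 564Igi it ran from IGHV14-3 through IGHV14-1, IGHV10-1, IGHV10-3 and IGHV14-2 to IGHV14-4, and the intervals of all neighbours overlapped. In WT it ran from IGHV14-4 through IGHV10-1, IGHV10-3, IGHV14-2 and IGHV14-3 to IGHV14-1. Only the last step there, from IGHV14-3 down to IGHV14-1, had intervals apart.

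**Figure D1:**
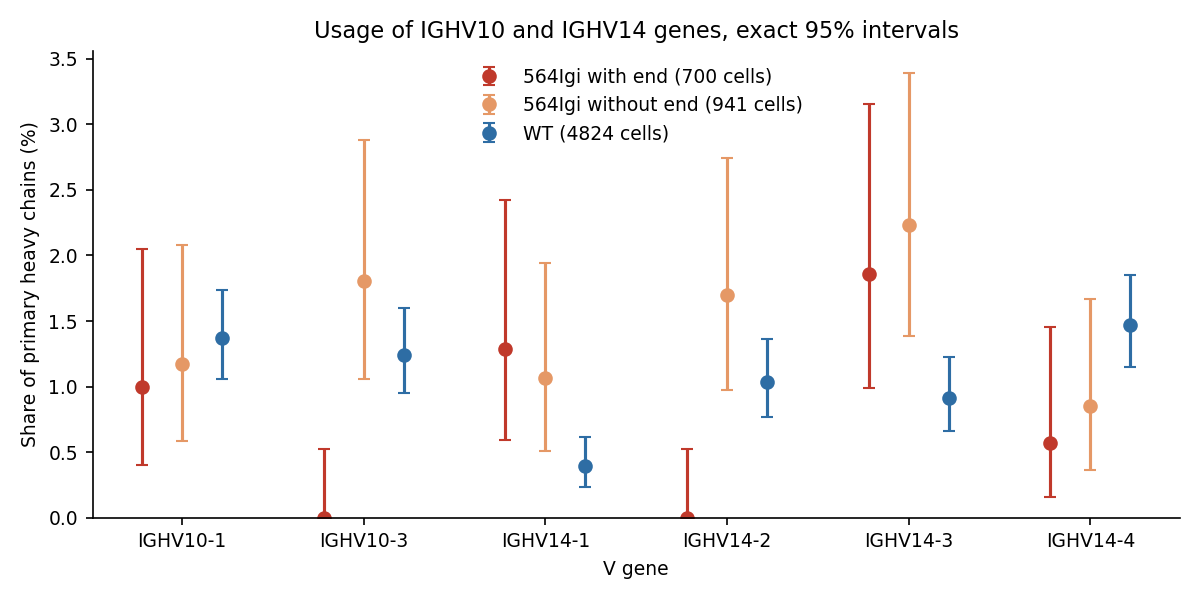
The plot of usage shows the share of primary heavy chains (%, vertical axis) of each member gene in 564Igi cells with the end, 564Igi cells without the end and WT cells, with exact 95% intervals. IGHV10-3 and IGHV14-2 stand at 0 among the 700 cells with the end, and IGHV14-3 stands highest in both 564Igi sets.

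Splitting 564Igi by the end separated the genes. Among chains with the end, IGHV10-1 had 7, IGHV14-1 had 9, IGHV14-3 had 13 and IGHV14-4 had 4, while IGHV10-3 and IGHV14-2 had none. A count of 0 of 700 allows a share of up to 0.429% by a limit of 3 counts, and its exact interval reached 0.526%. In WT these 2 genes held 1.24% and 1.04%. Both were called lower with the end than in WT, at −1.24 points (−1.60 to −0.64) for IGHV10-3 and −1.04 points (−1.36 to −0.45) for IGHV14-2. These were 2 of 5 members, near the 39.3% of 61 genes called in that comparison.

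Without the end, the same 2 genes were present, IGHV10-3 with 17 chains of 941 (1.81%) and IGHV14-2 with 16 (1.70%). Their intervals with and without the end did not overlap, but both fell below the 20-cell minimum. Of 20 IGHV genes with at least 15 chains without the end, 3 had no chain with it, these 2 members and IGHV1-72. That count was made after the values had been seen. The 2 members, with 17 and 16 chains, pass its minimum of 15 but not the 20 used elsewhere. No conclusion is drawn from it. IGHV14-3 was the only member with enough cells to be compared with and without the end, at 1.86% with it and 2.23% without it, a difference of −0.37 points (−1.82 to 1.17). It was not called, beside 42.1% of 19 genes.

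As a family, IGHV10 was called lower with the end than in WT. It held 7 of 700 chains with the end (1%, 0.403% to 2.05%), 28 of 941 without it (2.98%, 1.99% to 4.27%) and 2.61% in WT (2.18% to 3.10%). The difference from WT with the end was −1.61 points (−2.38 to −0.48). Of 12 families 4 were called higher and 3 lower in that comparison. All 6 genes together held 4.71% with the end and 8.82% without it, a difference of −4.11 points (−6.57 to −1.58). These intervals were apart, as were those of 42.1% of the 19 genes tested with the end against without it.

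IGHV14-3 was also called among chains without the end. It held 21 of 941 chains without the end (2.23%, 1.39% to 3.39%) against 0.912% in WT, a difference of 1.32 points (0.42 to 2.51). In this comparison 3.33% of 60 genes were called, and IGHV14-3 was 1 of those 2 genes and the only called member of 5. IGHV14 as a family was called as well, with 55 of 941 chains without the end (5.84%, 4.43% to 7.54%) against 184 of 4824 in WT (3.81%, 3.29% to 4.39%). This call was lost under 3 of 8 alternatives. With a UMI minimum of 5 the difference was 1.26 points (−0.16 to 2.95) in place of 2.03. The intervals also overlapped with barcodes called in both tables kept and with the end taken as the last 18 bases. Of 12 families 2 were called higher and 1 lower. The 5 member genes tested had a median difference of 0.56 points, beside 0.01 points over all 60 genes.

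Profiles of usage over the 3 sets (with the end, without it and WT) were scaled to sum to 1 and compared by total variation distance, in which 0 means identical profiles. IGHV10-1 was nearest to IGHV6-6 (distance 1.16%) and IGHV5-4 (2.86%). IGHV14-4 was nearest to IGHV1-15 (2.76%) and IGHV1-42 (5.59%), and IGHV14-3 to IGHV1-53 (7.13%) and IGHV4-1 (7.71%). IGHV10-3 and IGHV14-2 shared their 2 nearest genes, IGHV1-61 and IGHV1-64, at 5.09% to 10.3%. IGHV1-61 had no chain with the end and IGHV1-64 held 0.429% of them. With 3 sets a likeness is a description of counts.

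The light chain partner set the IGHV10 family apart in WT. A lambda light chain was primary in 35 of 124 paired IGHV10 cells (28.2%, 20.5% to 37.0%), against 8.32% of cells with any other heavy chain, a difference of 19.9 points (12.1 to 28.7). IGHV10 ranked 1 of 12 families with at least 20 cells. IGHV10-1 led the genes, with 22 of 64 cells (34.4%, 22.9% to 47.3%), and IGHV10-3 ranked 3, with 13 of 60 (21.7%, 12.1% to 34.2%). Both were called higher than all other heavy chains. They were 2 of 5 members, beside 11.5% of 61 genes called in either direction, the others being IGHV5-6, IGHV8-8, IGHV9-3, IGHV1-26 and IGHV1-39.

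IGHV14 did not share this. Lambda chains were primary in 16 of 183 paired IGHV14 cells in WT (8.74%, 5.08% to 13.8%), which differed from all other heavy chains by −0.10 points (−3.86 to 5.03). By gene, lambda was found with IGHV14-3 in 5 of 44 cells, with IGHV14-4 in 7 of 71, with IGHV14-2 in 3 of 49 and with IGHV14-1 in 1 of 19. The median lambda share was 11.4% over the 5 members with at least 20 cells and 7.08% over all 61 genes.

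The lambda chains beside IGHV10 in WT mostly used IGLV2 or IGLV3. In WT, 21 were IGLV2, 8 were IGLV3 and 6 were IGLV1, so 29 of 35 (82.9%, 66.4% to 93.4%) used IGLV2 or IGLV3. Of lambda chains paired with genes outside the 6, 127 of 371 did (34.2%, 29.4% to 39.3%). IGLV1, the most common mouse lambda V gene in these cells, made up 244 of those 371. Among all light chains in WT, IGLV2 was the partner of 16.9% of IGHV10 cells and of 1.86% of cells outside the 6 genes. The kappa gene IGKV10-96 followed with 8.06% of IGHV10 cells against 4.75%.

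The heavy chains of lambda and kappa IGHV10 cells in WT were set side by side without a test. The median CDR3 was 13 amino acids with lambda and 14 with kappa, and the mean number of arginines was 0.857 with lambda and 1.15 with kappa. IGHJ4 was used by 42.9% with lambda and 41.6% with kappa, and median heavy chain UMIs were 15 with lambda and 14 with kappa. The 35 lambda cells held 35 distinct heavy chains.

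**Figure D2:**
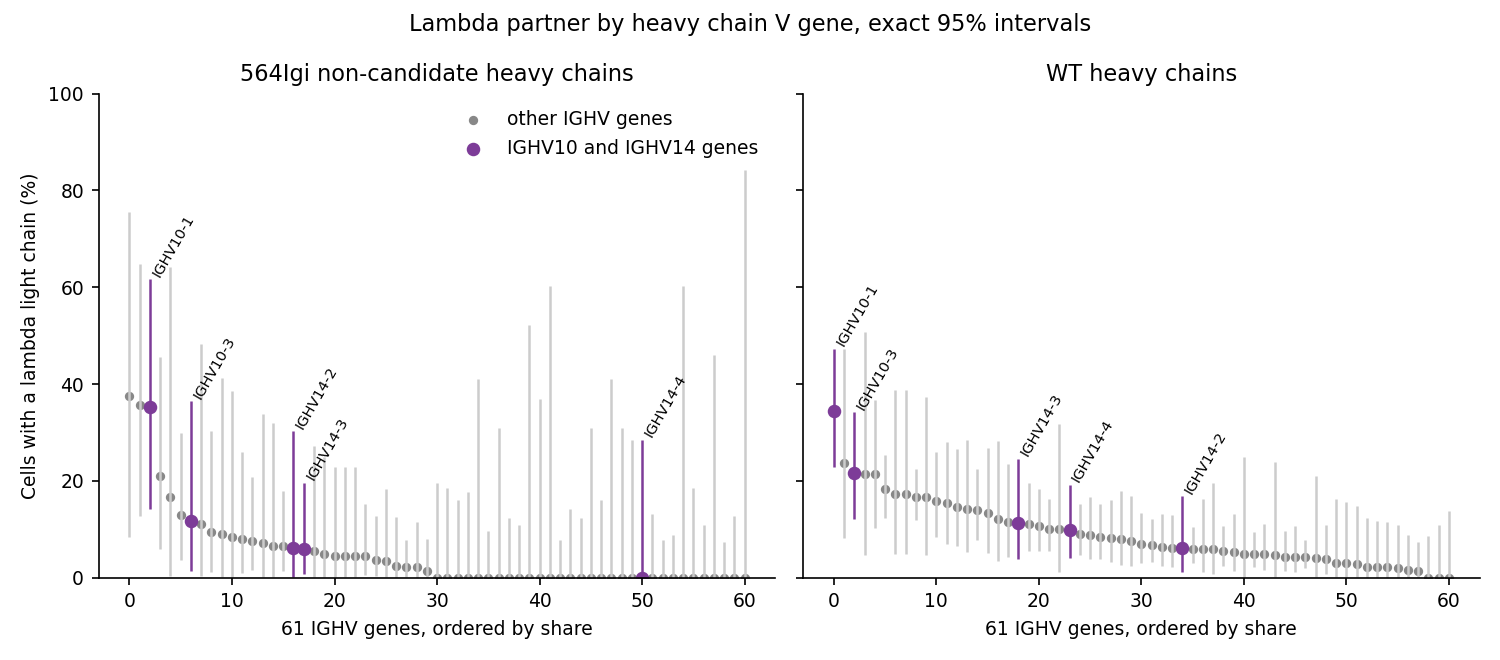
The plot of lambda partners shows the share of paired cells with a primary lambda chain (%, vertical axis) for each of 61 IGHV genes, ordered by share, in 564Igi without the candidate heavy chain at left and in WT at right, with exact 95% intervals. IGHV10-1 stands at 35.3% in 564Igi and leads all genes at 34.4% in WT. IGHV14-1 is not drawn because it had under 20 cells in both mice.

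In 564Igi most cells also carried a shared light chain, IGKV4-59 with IGKJ5, called the candidate light chain. It was primary in 8 of 17 paired IGHV10-1 cells (47.1%, 23.0% to 72.2%), against 83.6% of cells with any other non-candidate heavy chain, a difference of −36.6 points (−60.7 to −11.4). IGHV10-1 ranked 59 of 61 genes and was the only member called, 1 of 5, beside 11.5% of 61 genes. IGHV4-1, IGHV1-82 and IGHV6-6 were also called lower. Counting a second light chain as well, 10 of 17 IGHV10-1 cells (58.8%) held the candidate light chain, against 92.1% of cells outside the 6 genes.

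The rest of the IGHV10-1 cells were mostly lambda cells. Lambda was primary in 6 of 17 (35.3%, 14.2% to 61.7%), 3 with IGLV1 and 3 with IGLV2, against 3.62% of cells with other heavy chains. The difference was 31.7 points (10.6 to 58.1). IGHV10-1 was 1 of 4 genes called, which is 6.56% of 61, and the only one of 5 members. The other genes called, all higher, were IGHV9-4, IGHV1-82 and IGHV4-1. The IGHV10-1 lambda share was thus 35.3% in 564Igi and 34.4% in WT, although the lambda share of all other heavy chains was 3.62% in 564Igi and 8.49% in WT. The low number of IGHV10-1 cells in 564Igi leaves its interval wide.

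Within IGHV10-1, cells with and without the end both held lambda chains. With the end, the 6 paired cells had 2 candidate light chains, 2 lambda and 2 other kappa chains. Without it, the 11 paired cells had 6 candidate light chains, 4 lambda and 1 other kappa chain. IGHV10-3, which had no chain with the end, kept the candidate light chain in 13 of 17 cells (76.5%), with 2 lambda and 2 other kappa chains. For the family the candidate light chain was primary in 21 of 34 cells (61.8%, 43.6% to 77.8%). With a second light chain counted as well, 15 of 17 IGHV10-3 cells (88.2%) and 25 of 34 cells of the family (73.5%) held it.

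IGHV14 chains were nearly always found with the candidate light chain. It was primary in 74 of 80 paired IGHV14 cells (92.5%, 84.4% to 97.2%), against 82.8% of cells with other non-candidate heavy chains. The difference was 9.73 points (1.41 to 14.8), and the separate intervals overlapped. All 19 IGHV14-1 cells and all 11 IGHV14-4 cells had it, as did 30 of 34 IGHV14-3 cells and 14 of 16 IGHV14-2 cells. The 6 other IGHV14 cells had 3 lambda and 3 kappa chains. Counting a second light chain as well, 75 of 80 IGHV14 cells (93.8%) held the candidate light chain, close to the 92.1% of cells outside the 6 genes. In WT the candidate light chain was not primary in any IGHV10 cell. By the limit of 3 counts, 0 of 124 allows up to 2.42%, and its exact interval reached 2.93%.

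**Figure D3:**
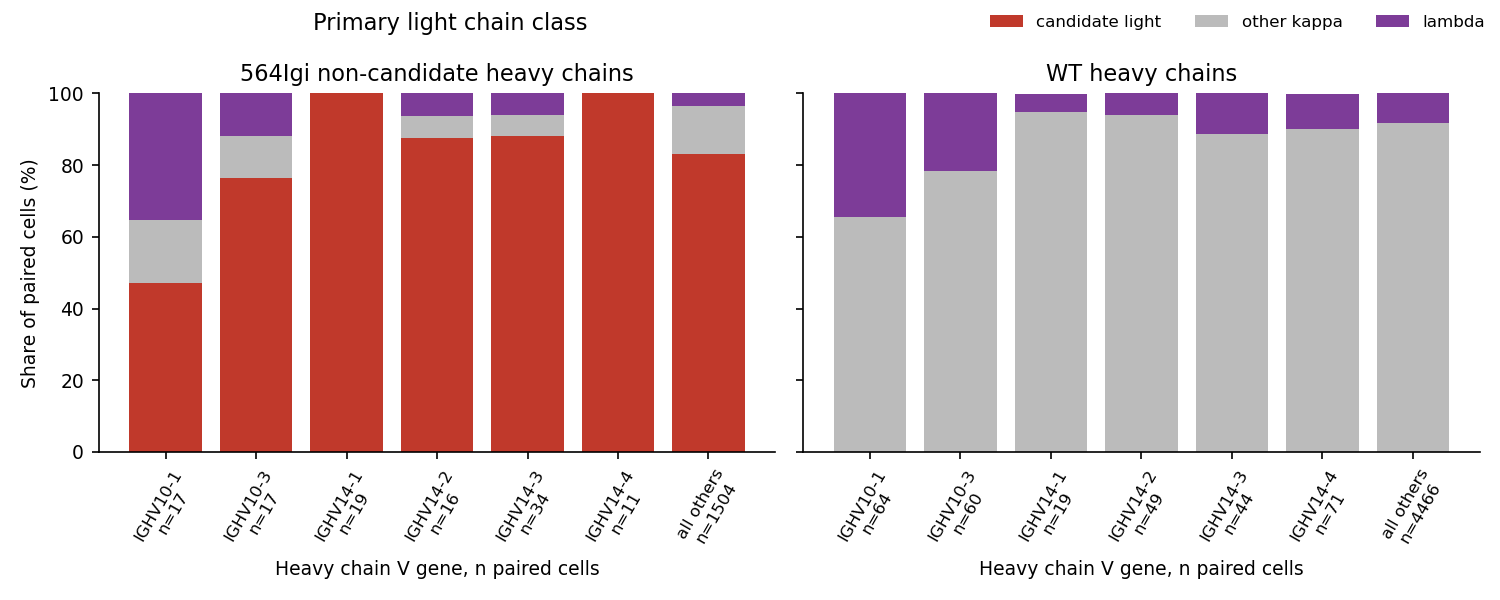
The plot of light chain classes stacks the share of paired cells (%, vertical axis) whose primary light chain was the candidate light chain, another kappa chain or a lambda chain, for each member and all other IGHV genes, in 564Igi without the candidate heavy chain at left and in WT at right. In 564Igi the candidate light chain fills the bars of IGHV14-1 and IGHV14-4 and 47.1% of that of IGHV10-1. It was looked for in 564Igi only, so its absence from the WT bars is by definition.

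CDR3 length was compared with and without the end, whose 10 residues are fixed by the rule. The median was 20 amino acids with the end (14 to 24), 14 without it (7 to 20) and 13 in WT (6 to 20, lowest to highest), and chains outside the 6 genes had medians of 20, 14 and 14. By family the medians were 20, 14 and 14 for IGHV10 and 19, 13 and 13 for IGHV14. Before the end, the 33 member chains had a median of 10 residues (4 to 14). Pooled, members without the end and in WT thus had median lengths within 1 residue of other chains. By gene the medians spread more widely. Without the end they ran from 11.5 (IGHV14-1 and IGHV14-4, 10 and 8 chains) to 15 (IGHV10-1, 11 chains). In WT they ran from 12 (IGHV14-4) to 15 (IGHV14-1).

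**Figure D4:**
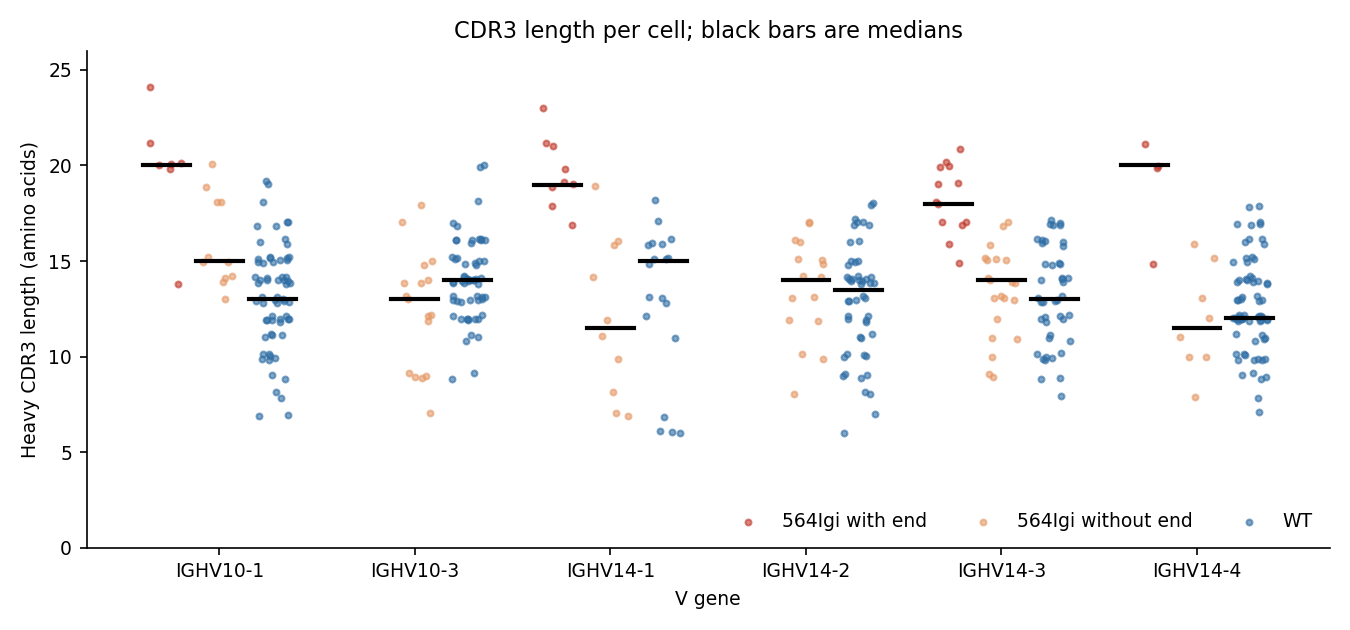
The plot of CDR3 lengths shows each cell as a point (amino acids, vertical axis, points shifted slightly so that equal values can be seen) by gene, for 564Igi with the end, 564Igi without the end and WT, with black bars at the medians. Chains with the end lie mostly between 17 and 24 amino acids, above the WT medians of 12 to 15.

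Arginine, the positively charged residue frequent in antibodies against DNA, was counted over the whole CDR3. The end itself holds none, so arginines of chains with the end lie before it. They include the arginine that stood with serine right before the end in 21 of 33 members, as it does in the candidate. Counts with the end are therefore not counts of newly joined residues alone. Members with the end had 1.24 ± 0.792 arginines (SD over 33 chains), members without it 0.892 ± 0.663 (83 chains) and members in WT 0.861 ± 0.761 (310 chains). Other genes had means of 1.79 with the end, 1.15 without it and 1.14 in WT, above the members in each set. By family, in the same order, the means were 1.57, 1.14 and 1.08 for IGHV10 and 1.15, 0.764 and 0.712 for IGHV14. With residue 3 of the CDR3 not counted, they were 0.697, 0.265 and 0.287 for members and 0.948, 0.369 and 0.338 for other genes. At least 2 arginines were found in 13 of 33 members with the end (39.4%, 22.9% to 57.9%), 16.9% without it and 16.5% in WT, and in 63.3%, 27.0% and 25.4% of chains of other genes.

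The share of chains with at least 1 arginine varied among the members in WT. There, 22 of 71 IGHV14-4 chains (31.0%, 20.5% to 43.1%) had an arginine, against 84.0% of all other chains, a difference of −53.02 points (−63.5 to −40.9). It was the only member called of 5, beside 41% of 61 genes, a share below the background. IGHV14-1, with too few cells to be tested, stood at 31.6% of 19 chains. IGHV10-1, IGHV10-3, IGHV14-2 and IGHV14-3 stood between 75% and 90%. The IGHV14 family stood at 53.8% and IGHV10 at 84.9%. Residue 3 of the CDR3, which the V gene usually supplies, was arginine in 104 of 126 IGHV10 chains, 6 of 71 IGHV14-4 chains and 1 of 19 IGHV14-1 chains in WT. In 564Igi it was arginine in 32 of 35 IGHV10 chains and 38 of 81 IGHV14 chains. With the end, IGHV10-1 had at least 1 arginine in 7 of 7 chains and IGHV14-1 in 6 of 9. Arginine and serine stood right before the end, as in the candidate, in 6 of these 7 IGHV10-1 chains and 6 of these 9 IGHV14-1 chains.

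The first bases of the CDR3 come from the V gene, and in IGHV14-1 and IGHV14-4 they differed with the end. In IGHV14-1 the first 6 bases were TGTAAT in 8 of 9 chains with the end, whereas TGTACT was found in 0 of 9 with the end, 9 of 10 without it and 17 of 19 in WT. The WT chain with most UMIs shows the usual start, and the chain with the end was printed above.
IGHV14-1 in WT: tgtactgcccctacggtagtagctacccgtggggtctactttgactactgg
IGHV14-4 in WT: tgtactacctcatatgtctgg
In IGHV14-4, TGTACT began 0 of 4 chains with the end, 6 of 8 without it and 58 of 71 in WT. The most common start with the end, TGTGCT, began 2 of the 4 chains. IGHV10-1, which began with TGTGTG in 7 of 7 chains with the end and 64 of 66 in WT, had the same most common start in all sets, and so did IGHV14-3.

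Among genes with at least 4 chains in each set, the most common start with the end differed from that in WT in 2 of 4 members and 5 of 44 other genes, IGHV1-5, IGHV1-55, IGHV2-9-1, IGHV5-9-1 and IGHV9-1. Without the end it differed in 0 of 4 members and 0 of 44 others. This comparison was chosen after the values had been seen, and IGHV14-4 just met its minimum, with 4 chains with the end. The name of the knock-in strain, B6.129S4(Cg), lists a background besides C57BL/6J, the strain of the mm10 build. Whether V genes of another strain were given the nearest mm10 name was not tested, and it touches every count by gene among chains with the end.

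J segment use also differed between the families in WT. IGHJ4, the J segment farthest from the V genes and that of the candidate, was joined to IGHV10 in 53 of 126 chains (42.1%, 33.3% to 51.2%), against 27.6% of all other heavy chains, a difference of 14.5 points (5.65 to 23.7). IGHV10 ranked 2 of 12 families. IGHV10-3 was called, with 29 of 60 chains (48.3%, 35.2% to 61.6%), 1 of 5 members beside 8.2% of 61 genes, and the other 4 genes called were all of the IGHV2 family. IGHV10-1 used IGHJ4 in 24 of 66 chains (36.4%). IGHV14 used it in 44 of 184 (23.9%, 17.9% to 30.7%) and IGHV14-1 in 1 of 19.

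In 564Igi chains without the end, IGHJ4 was found in 13 of 28 IGHV10 chains (46.4%) and 15 of 55 IGHV14 chains (27.3%). For all 6 genes it was 33.7% without the end and 31.3% in WT. Every chain with the end had IGHJ4, whose bases form part of the end. IGHJ1 was absent from the 28 IGHV10 chains without the end, against 15 of 126 (11.9%) in WT. The exact interval of 0 of 28 reached 12.3%, above the WT share.

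D segments were named by the deposited annotation from few bases, and are given as counts. In chains with the end, IGHD2 was named in 19 of 33 members, IGHD3 in 8 and IGHD1 in 3. Without the end the counts were 43, 2 and 19 of 83. In WT they were 119, 16 and 101 of 310. In IGHV14 in WT, IGHD1 was named in 39.1% and IGHD2 in 34.2%, and in IGHV10 these were 23.0% and 44.4%.

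Nearly all members were unswitched. Among chains with a named constant gene, IGHM was found in 99 of 110 in 564Igi and 255 of 293 in WT, and IGHD in 9 and 37. Switched chains numbered 2 of 110 in 564Igi (1.82%) and 1 of 293 in WT (0.341%). In 564Igi they were an IGHV14-3 chain with the end and an IGHV14-2 chain without it, and in WT it was an IGHV10-1 chain. Other genes had 1.83% switched in 564Igi and 0.59% in WT.

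IGHD was seldom named for IGHV14. In WT, 18 of 172 IGHV14 chains carried it (10.5%, 6.32% to 16.0%), against 21.9% of all other heavy chains, a difference of −11.4 points (−15.8 to −5.74), rank 11 of 12 families. In 564Igi it was 8 of 78 IGHV14 chains (10.3%) and 12.1% of chains outside the 6 genes. IGHV10 stood at 1 of 32 in 564Igi and 19 of 121 (15.7%) in WT. No member gene was called alone, 0 of 5, beside 4.92% of 61 genes. The 5 members tested had a median IGHD share of 11.9%, and all 61 genes 22.3%. A low share was not particular to IGHV14, since in WT IGHV6 stood at 11.1%, IGHV4 at 12% of 25 chains and IGHV13 at 0% of 22 chains. IGHV14 chains also had fewer UMIs, a median of 8 in 564Igi and 10 in WT, against 17 and 15 for genes outside the 6. The part of this depth in the IGHD share was not tested.

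**Figure D5:**
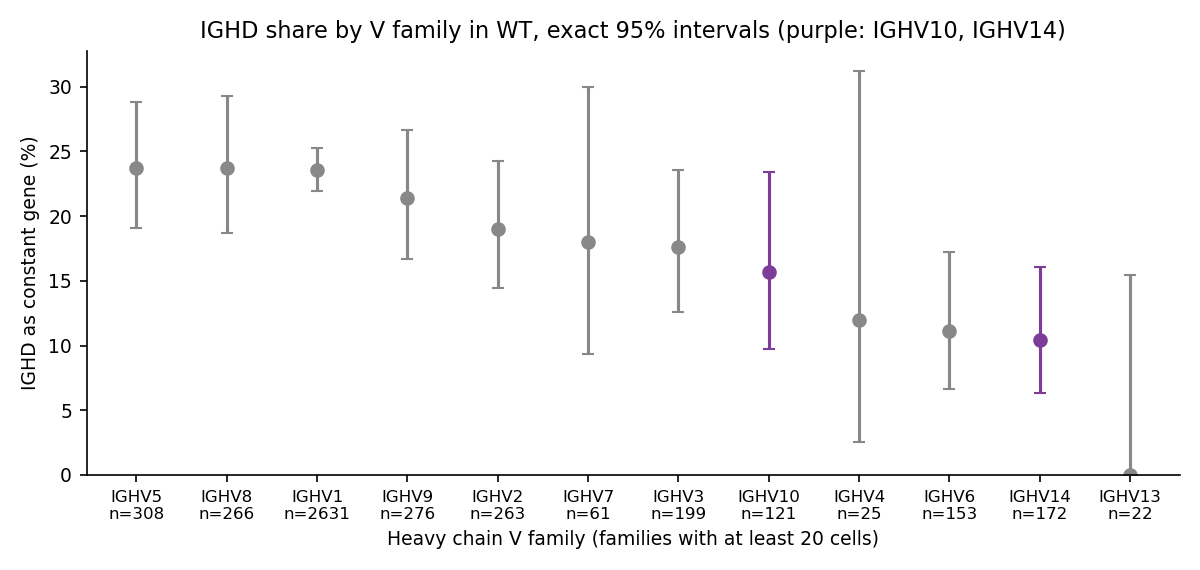
The plot of IGHD shares gives the share of WT heavy chains with a named constant gene that carried IGHD (%, vertical axis) for each V family with at least 20 cells, with exact 95% intervals and the 2 families described here in purple. IGHV14 stands at 10.5% and IGHV10 at 15.7%, while IGHV1 stands at 23.6%. IGHV6, at 11.1%, stands beside IGHV14.

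Members were not expanded clones. The 116 cells of 564Igi held 115 distinct chains (V gene, J gene and CDR3 bases) and the 310 cells of WT held 309, so the largest clone had 2 cells in each mouse. No CDR3 amino acid sequence with the same V gene was shared between the 115 chains of 564Igi and the 308 of WT, and none was among chains of the other genes, 1485 in 564Igi and 4478 in WT. Heavy chain UMIs of members ranged from 2 to 2882 in 564Igi and from 2 to 901 in WT. The 3 members with at least 1000 UMIs were all IGHV10 chains of 564Igi, with 1652, 2645 and 2882, and 1 of these carried the end. In other genes, 26 of 1525 non-candidate chains in 564Igi and 21 of 4514 chains in WT had as many.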

How the data were processed

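V(D)J libraries of B and T cells from 1 564Igi and 1 WT spleen were analysed. Gene expression libraries were left aside and are not analysed here. Per the submitters' processing notes, Cell Ranger 3.0.2 and mm10 were used, with no role given. The deposited tables list assembled contigs with raw read and UMI counts, not normalized, per the file headers, and gene names, cell calls and CDR3s were used as the authors gave them. Barcodes called in both the B and T tables of a mouse (373 in 564Igi, 345 in WT) were left out, and no doublet caller was run.

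From these counts, shares with Clopper-Pearson 95% intervals and Newcombe differences in points were computed (Python 3.11.15, pandas 2.3.3, SciPy 1.17.1, NumPy 2.4.6, matplotlib 3.10.9). A gene was tested with at least 20 cells in either set and called when the intervals did not overlap. The limit for a count of 0 is 3 counts of the total. All 6 members were named, with the 2 genes of nearest profile, and sequences were printed for the chain with most UMIs. Members and lists were chosen with earlier results of these data known. Alternatives changed the UMI minimum (1 or 5), doublet treatment, chain number, clone counting, confidence flag, candidate, near copies (up to 5 mismatches) and the definition of the end (30 bases with up to 2 mismatches, or 18 bases). RefSeq promoters matched 0 of 6 members.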

Additional observations from a re-analysis of the deposited data

How the results depend on the processing

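No paired analysis was possible because each genotype had 1 mouse. Of 161 recomputed values that answer a comparison, 159 stayed within the 95% interval of the reported value, and of 168 values of single genes 166 did. None changed the direction of a difference whose interval excluded 0. Keeping the candidate heavy chain among all 564Igi chains moved IGHV10 to −1.60 points and IGHV14 to −1.48 points against WT, so that IGHV14 was then lower in 564Igi, because 1830 more chains stood in the total. The same setting took IGHV14-3 to 0.07 points and IGHV14-1 to 0.15 points. The lambda difference of IGHV10 in WT ran from 19.2 to 20.4 points over 6 alternatives, that of IGHD in IGHV14 from −12.4 to −10.8 over 7, and that of IGHJ4 in IGHV10 from 10.6 to 14.5 over 6. The difference of IGHV14 without the end ran from 1.26 to 2.34 points, and its call held under 5 of 8. The calls of IGHV14-3 without the end and of IGHV10, IGHV10-3 and IGHV14-2 with it held under 8 of 8. Depth limits genes with under 20 chains, among them every member with the end.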

Other observations

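Member chains were also found as second heavy chains. Of 122 second heavy chains in 564Igi, 16 were members (13.1%, 7.69% to 20.4%), 13 of them IGHV14 and 3 IGHV10. Of 371 in WT, 38 were members (10.2%, 7.35% to 13.8%), 23 IGHV14 and 15 IGHV10. As primary chains the 6 genes held 7.07% of non-candidate chains in 564Igi and 6.43% in WT. The primary chain is by definition the one with most UMIs, and IGHV14 chains had few. Their medians were 8 in 564Igi and 10 in WT, against 17 and 15 outside the 6 genes. The part of this in the shares of second chains was not tested. In 564Igi, 4 of the 16 second chains stood beside the candidate as primary chain.

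Non-productive heavy chain contigs named none of the 6 genes in 23 contigs of 564Igi and IGHV10 in 2 of 51 in WT. Among barcodes called T cells only, 1 of 4573 in 564Igi and 0 of 3263 in WT carried a member chain, and 0 of 3263 allows a share of up to 0.0919%.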
